A study of Mus musculus with 24 samples.

Results

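Cells make the building blocks of DNA, the deoxynucleotides, with a small set of enzymes, and 9 genes of that set were followed here in mouse B-cell lymphomas before and after a DNA-damaging drug. The genes were Rrm1, Rrm2, Rrm2b, Tyms, Tk1, Dut, Shmt1, Shmt2 and Prps1, chosen by name, with earlier results of these data known. They were measured by 26 probe sets assigned to a single gene, out of 34945 such probe sets for 18193 genes. For gene-level values each gene was read from whichever of these probe sets had its highest average over all arrays.

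The 24 arrays came from 12 primary B-cell lymphomas of Emu-myc transgenic mice, in which the Myc oncogene is expressed throughout the B-cell lineage. The untreated group held 12 arrays and the ADR group held 12 arrays, 1 of each from every lymphoma. ADR was Adriamycin (doxorubicin), given in culture at 0.05 µg/ml for 5 days, and the labels describe the treated cells as senescent. What both groups shared limits the model: all cells carried Bcl2, which blocks apoptosis, on an MSCVpuro retrovirus and had been selected with puromycin, and all grew on a layer of gamma-irradiated NIH 3T3 mouse fibroblasts. Age and strain of the mice are not given in the sources used here. Each lymphoma is known by the number in its title.

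Ribonucleotide reductase removes an oxygen from ribonucleotides to give deoxyribonucleotides, and this step limits the supply for DNA synthesis. Rrm1 is its large catalytic subunit and Rrm2 is the small subunit used in S phase, which dividing cells make under E2F control and destroy in mitosis. Rrm2b (p53R2) is an alternative small subunit that p53 can switch on after DNA damage and that supplies non-dividing cells. Thymidylate is made from dUMP by Tyms or salvaged from thymidine by Tk1, and Dut breaks down dUTP so that uracil stays out of DNA. Shmt1 in the cytosol and Shmt2 in mitochondria take the carbon unit from serine that folate carries to thymidylate and purines, and Prps1 makes the activated ribose on which every new nucleotide is built.

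The start regions of Rrm1 and Rrm2 are shown because these genes encode the 2 subunits of the S phase enzyme. The 120 bases before the RefSeq start site are written in the direction of transcription, with each CCAAT box in capitals. The Rrm1 stretch lies at chr7:102441575-102441694 and the Rrm2 stretch at chr12:24708134-24708253, both on the plus strand of GRCm38.p6.
Rrm1: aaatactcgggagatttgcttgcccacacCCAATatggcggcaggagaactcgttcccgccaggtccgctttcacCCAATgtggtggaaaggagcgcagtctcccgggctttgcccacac
Rrm2: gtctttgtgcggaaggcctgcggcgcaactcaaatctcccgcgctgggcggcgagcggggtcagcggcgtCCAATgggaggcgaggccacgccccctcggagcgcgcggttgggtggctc

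CCAAT is the word bound by the NF-Y factor. Rrm1 held it from -91 to -87 and again from -45 to -41, and Rrm2 held it from -50 to -46, counted from the start site. The promoter table, which covers 250 bases before to 50 after each start, matched 8 of the 9 genes. CCAAT was found on either strand in 4 of these 8 (Rrm1, Rrm2, Prps1 and Shmt1) and in 37.4% of all 32851 promoters in the table. The E2F words TTTCCCGC, TTTCGCGC, TTTGCCGC and TTTGGCGC, searched on both strands, were in 0 of the 8 and in 2.26% of all promoters. The cell cycle word TTTGAA was in 0 of the 8 and in 17.9% of all. A match is a description of these letters and no evidence of binding. A missing word says only that this exact word is not in this window. Shorter or variant forms were not searched.

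Values are log2 expression as deposited, so a difference of 1 is a factor of 2. Array medians lay between 4.38 and 4.47, and a gene whose mean was at or below 4.47 was treated as near the array's floor and given no fold. Of the 9 measured B-cell markers, Cd79a, Cd79b, Cd22, Cd37, Cd72 and Blnk had untreated means between 9.42 and 11.54. Ebf1 (7.88) and Ms4a1 (7.57) were lower, and Pax5, a defining B-cell factor, was close to the floor at 5.05. The proliferation marker Mki67 fell from 10.77 ± 0.40 to 8.42 ± 0.83 (SD, n = 12), 5.09-fold, and was lower in 12 of 12 lymphomas (limma, adjusted p = 2.22e-05). The p53 targets Cdkn1a, which halts the cell cycle, and Mdm2, which degrades p53, rose 2.21-fold and 2.17-fold (limma, adjusted p = 0.00192 and 0.00132). RNA of other cells moved with treatment too: 23 of 28 measured fibroblast markers and 16 of 23 macrophage markers rose, while 0 of 9 B-cell markers rose and 3 fell (Cd22, Cd79a and Ebf1). With the fibroblast covariate described below, 0 B-cell markers were called lower, and the median change of that list turned from -0.21 to 0.34. In bulk RNA, fewer cells of a type and less RNA per cell cannot be told apart.

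ADR lowered 8 of the 9 nucleotide genes, and the exception was Rrm2b. The falls were largest in Dut, Tk1, Rrm1 and Rrm2, between 3.90-fold and 2.80-fold, and smaller in Shmt1, Prps1 and Shmt2, between 2.22-fold and 1.91-fold. By comparison, 12.8% of all genes were called lower and 13.7% called higher at an adjusted p under 0.05, and the median change of all genes was -0.01. None of the 9 was called higher. A fall that passed the test and was at least 2-fold was seen in 6 of the 9, against 1.96% of all genes. For 5 of the 9 (Rrm1, Rrm2, Tk1, Dut and Prps1) the ADR value was lower in all 12 lymphomas, against 4.17% of all genes.

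**Figure D1:**
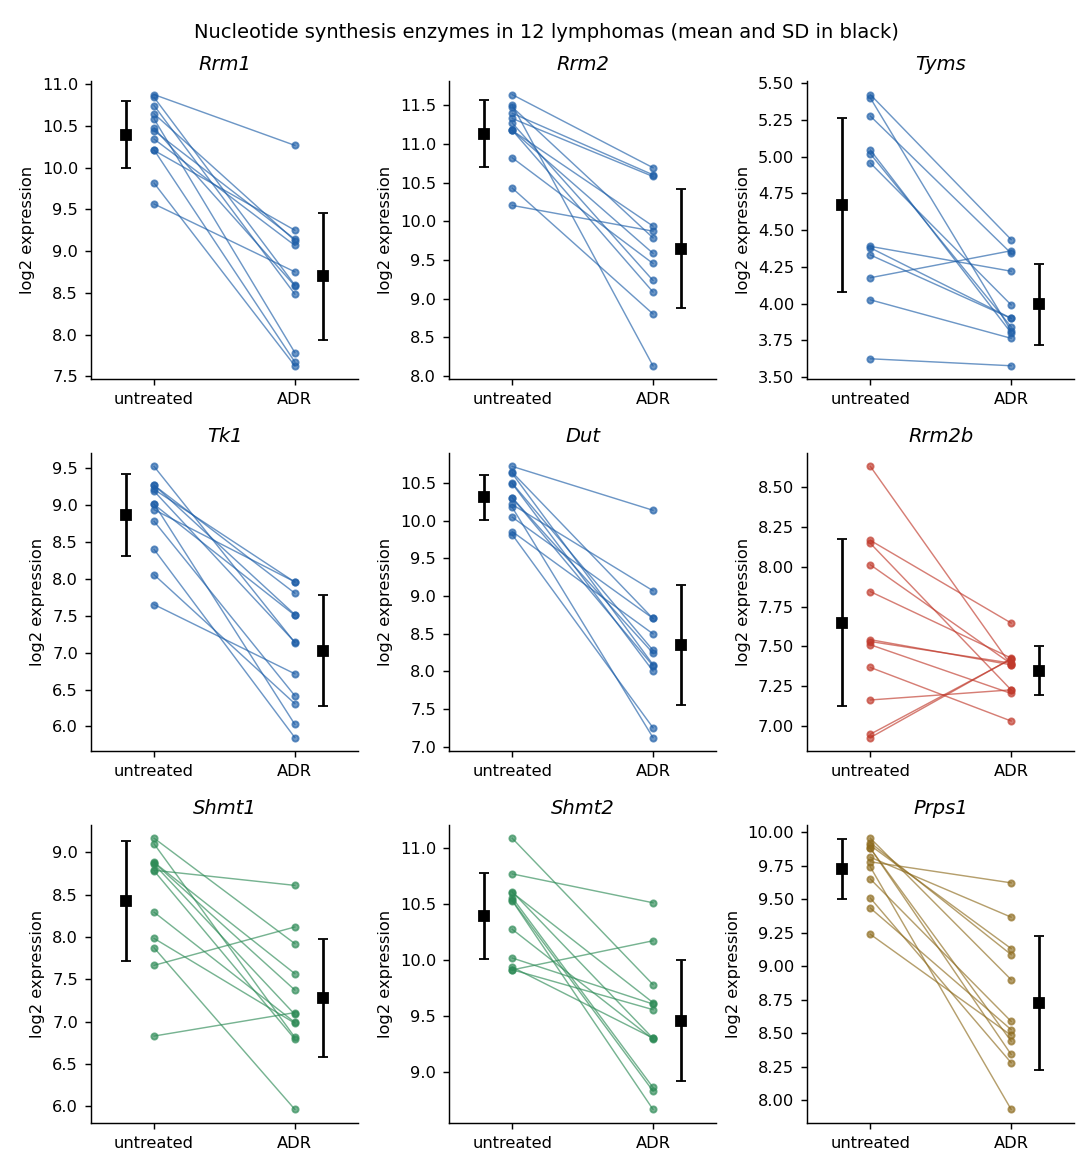
Log2 expression of the 9 genes (vertical axes) in untreated and ADR arrays, 1 panel per gene. Points are arrays, coloured lines join the 2 arrays of a lymphoma, and black marks give the mean and SD of 12. Most lines of Rrm1, Rrm2, Tk1 and Dut run steeply down, while those of Rrm2b run both ways and end in a narrow band between 7.03 and 7.65.

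Rrm1, the large subunit, had untreated values of 9.57 at the lowest, 10.46 at the median and 10.87 at the highest. After ADR they were 7.63, 8.67 and 10.27. Lymphoma 3802, at 10.27, was the only treated array inside the untreated range. The mean fell from 10.40 ± 0.40 to 8.70 ± 0.76 (SD, n = 12), a log2 change of -1.70 (SE 0.19, 95% interval -2.11 to -1.29, limma adjusted p = 4.01e-05) or 3.25-fold.

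Rrm2, the S phase small subunit, ran from 10.21 through a median of 11.22 to 11.64 in untreated arrays, and from 8.13 through 9.69 to 10.69 after ADR. The fall was uneven: lymphoma 2949 dropped by 3.37, from 11.50 to 8.13, and lymphoma 1467 by only 0.33, from 10.21 to 9.87. Lymphoma 1467 was the lowest of all untreated arrays for this gene. The groups overlapped because it and untreated 5560 (10.43) lay below the treated arrays of 7050, 6054 and 3802, which stayed above 10.5. The mean log2 change was -1.49 (SE 0.21, 95% interval -1.94 to -1.03, limma adjusted p = 0.000193), 2.80-fold. All 3 probe sets of Rrm2 were called lower, with changes between -1.70 and -1.35.

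Tk1, the thymidine salvage kinase, is classically made only in dividing cells. Its untreated values ran from 7.65 through a median of 9.02 to 9.53, and its ADR values from 5.85 through 7.14 to 7.96. The treated arrays of 3802, 7050 and 6054 exceeded the untreated array of 5560 and no other untreated array. The mean fell from 8.86 ± 0.56 to 7.03 ± 0.75 (SD, n = 12), a log2 change of -1.83 (SE 0.17, limma adjusted p = 1.65e-05) or 3.56-fold.

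Dut, which guards DNA against uracil, had the largest mean change of the 9 over all 12 lymphomas, although Tk1 passed it without lymphoma 5560 (-1.915 against -1.907), in the 7 lymphomas whose treated array file is named DOX in the labels (-1.91 against -1.88) and with the mean of probe sets (-1.83 against -1.62). It was held tightly in untreated arrays, from 9.82 through a median of 10.31 to 10.72, and spread out after ADR, from 7.12 through 8.26 to 10.14. The mean fell from 10.31 ± 0.30 to 8.35 ± 0.80 (SD, n = 12), a log2 change of -1.96 (SE 0.19, limma adjusted p = 1.96e-05) or 3.90-fold. A weaker probe set of Dut fell from 5.54 to 4.26.

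Tyms, the thymidylate synthase, could be followed only near the floor. The strongest of its 4 probe sets read 3.62 at the lowest, 4.67 at the median and 5.42 at the highest untreated, and 3.58, 3.90 and 4.44 after ADR. It was lower in 11 of 12 lymphomas, with 403 the exception at a change of 0.18, and the mean change was -0.68 (SE 0.15, limma adjusted p = 0.00392). The other 3 probe sets changed by -0.15, -0.05 and -0.12 and did not pass the test. A further probe set shared with Tyms-ps was left out because it matches more than 1 gene.

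**Figure D2:**
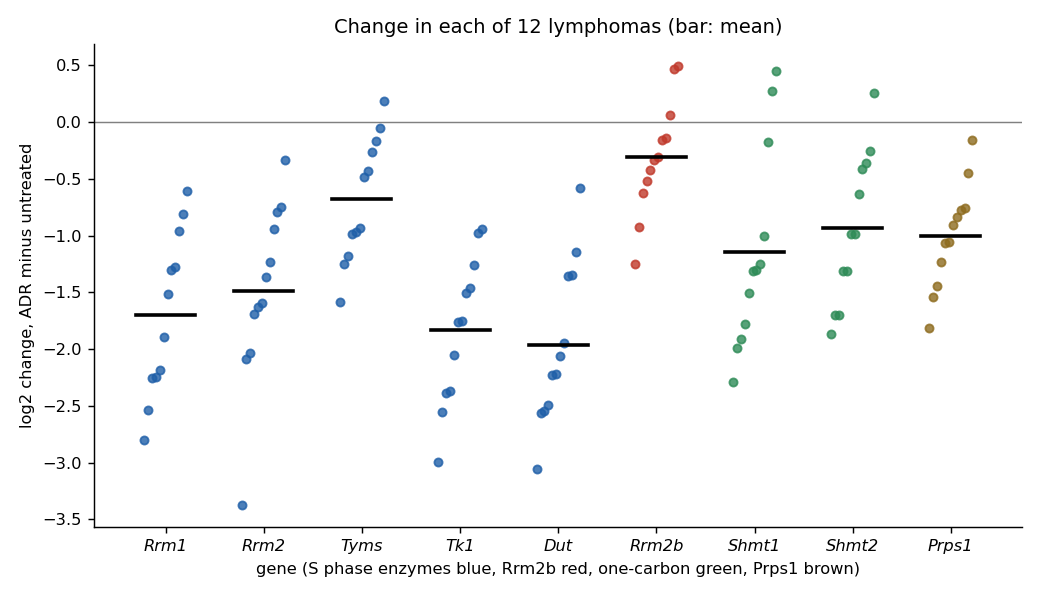
Log2 change, ADR minus untreated (vertical axis), of each gene (horizontal axis) in 12 lymphomas; each point is a lymphoma and the bar is the mean. Rrm1, Rrm2, Tk1, Dut and Prps1 have all 12 points below 0, whereas Rrm2b has 3 above it and a mean of -0.30.

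The S phase enzymes were lower together in most lymphomas. All 5 (Rrm1, Rrm2, Tyms, Tk1 and Dut) were lower in 11 lymphomas and 4 of them in 403. Their mean change ran from -2.18 in lymphoma 3769 to -0.62 in 3802. For all 9 genes the treated array was the lower one in 6 lymphomas (2581, 3594, 3769, 5560, 5766 and 6054). No gene of the 9 had all ADR arrays below all untreated arrays, which was seen for 0.264% of all genes.

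At the level of probe sets, 19 of the 26 were called lower and 0 higher, against 12.5% of all single-gene probe sets called lower. Of the 26, 8 lay near the floor in at least 1 group. Among the other 18, 16 were called lower, and the 2 that were not both belonged to Rrm2b. Shmt1 had 4 of 4 called lower (changes between -1.25 and -0.68) and Shmt2 had 4 of 4 (between -1.06 and -0.56).

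Rrm2b, the p53-inducible small subunit, stood apart. Its untreated values ran from 6.93 through a median of 7.54 to 8.63, and its ADR values from 7.03 through 7.39 to 7.65, entirely inside the untreated range. The mean was 7.65 ± 0.52 before and 7.35 ± 0.15 after (SD, n = 12), a log2 change of -0.30 (SE 0.14, 95% interval -0.60 to -0.0084 before adjustment, limma adjusted p = 0.125). It was lower in 9 lymphomas and higher in 1570 (0.50), 3802 (0.47) and 7050 (0.06). None of its 4 probe sets was called, with changes between -0.32 and -0.29. Cdkn1a and Mdm2, the p53 targets named above, rose in the same arrays, by 1.14 and 1.12 log2. With the fibroblast covariate described below neither kept its call, although Cdkn1a nearly kept its size (1.05) and Mdm2 stood at 0.58.

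Among the 24 measured genes listed as p53 targets, 15 rose, with Ccng1, a cyclin-like target, up 1.80-fold (limma adjusted p = 0.00212). Others did not: Ddb2 fell by 1.08 log2, and Sesn1 and Pmaip1, named after their values were seen, changed by -0.32 and 0.22 without passing the test (limma adjusted p = 0.163 and 0.528). The list was set by gene name, and whether each of its genes, Ddb2 included, answers to p53 in these mouse cells was not tested. Whether Rrm2b differs from the listed genes was not tested either.

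Both small subunits could be compared within each lymphoma, and Rrm2 fell further than Rrm2b in all 12. The difference between the 2 changes averaged -1.18 log2 (SE 0.22, 95% interval -1.66 to -0.71), by the exact sign-flip permutation test p = 0.000488, or 0.00244 after adjustment over the 20 pairs of genes compared. It ran from -2.85 in lymphoma 2949 to -0.03 in 1467, where the changes were -0.33 and -0.31. The other S phase enzymes also fell further than Rrm2b: Dut by a difference of -1.66 (12 of 12 lymphomas, exact test adjusted p = 0.00244), Tk1 by -1.53 (11 of 12, exact test adjusted p = 0.00326) and Rrm1 by -1.40 (11 of 12, exact test adjusted p = 0.00326). Tyms, near its floor, differed from Rrm2b by -0.37 (95% interval -0.81 to 0.06, exact test adjusted p = 0.117), and past the threshold without lymphoma 5560 (-0.50, adjusted p = 0.0374).

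**Figure D3:**
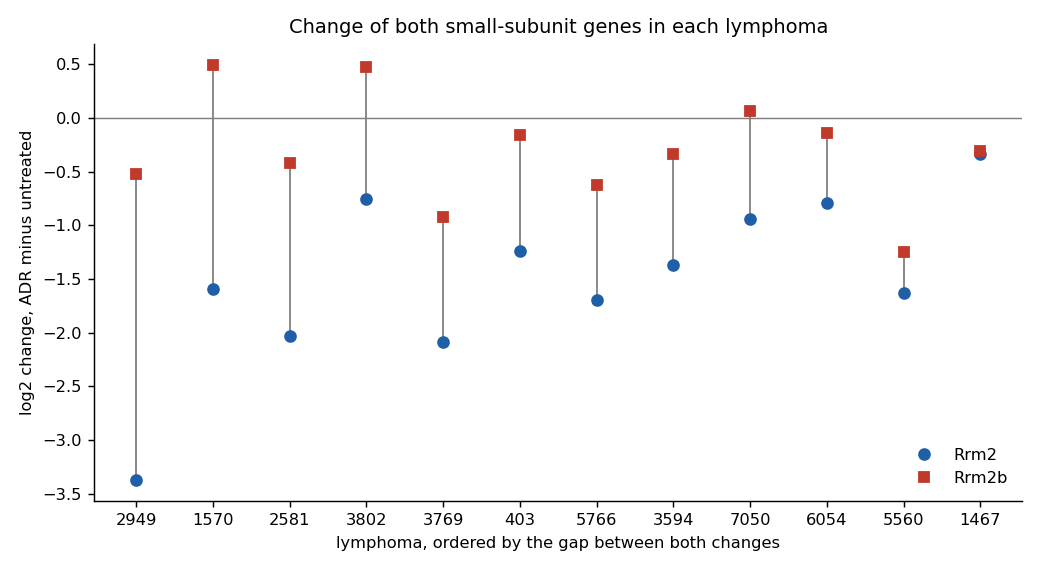
Log2 change, ADR minus untreated (vertical axis), of Rrm2 and Rrm2b in each lymphoma (horizontal axis, ordered by the gap between the changes); 1 point per gene and lymphoma. The Rrm2 point lies below the Rrm2b point in all 12, with a gap of 2.85 in lymphoma 2949 and 0.03 in 1467.

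Shmt1 and Shmt2, the serine enzymes that load folate, fell less evenly. Shmt1 ran from 6.83 through a median of 8.78 to 9.17 untreated and from 5.96 through 7.10 to 8.61 after ADR. Its mean change was -1.15 (SE 0.23, limma adjusted p = 0.00253), 2.22-fold, and it was lower in 10 lymphomas and higher in 1467 (0.45) and 2949 (0.28). Shmt2 ran from 9.91 through 10.53 to 11.09 untreated and from 8.67 through 9.43 to 10.51 after ADR. Its mean change was -0.94 (SE 0.18, limma adjusted p = 0.00151), 1.91-fold, lower in 11 lymphomas and 0.26 higher in 2949. Lymphoma 2949, which had the steepest fall of Rrm2, was thus the one in which neither serine enzyme was lower.

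Prps1, which feeds ribose into all nucleotide synthesis, was lower in every lymphoma. It ran from 9.24 through 9.80 to 9.96 untreated and from 7.93 through 8.56 to 9.62 after ADR. The mean fell from 9.73 ± 0.23 to 8.72 ± 0.50 (SD, n = 12), a log2 change of -1.0 (SE 0.13, limma adjusted p = 8.39e-05) or 2.0-fold.

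Only part of the gap between S phase enzymes and these 3 genes held up lymphoma by lymphoma. Dut fell further than Shmt1 (-0.81, exact sign-flip permutation test, adjusted p = 0.00488), Shmt2 (-1.03, adjusted p = 0.00244) and Prps1 (-0.96, adjusted p = 0.00244). Tk1 fell further than Shmt2 (-0.90, exact test adjusted p = 0.0186) and Prps1 (-0.83, exact test adjusted p = 0.00488). Rrm1 fell further than Prps1 (-0.70, exact test adjusted p = 0.0130), a call lost when each gene was read as the mean of its probe sets (-0.20, adjusted p = 0.264). Rrm1 against Shmt2 (-0.76, exact test adjusted p = 0.0408) and Rrm2 against Prps1 (-0.48, exact test adjusted p = 0.0431) passed narrowly. The call for Rrm1 against Shmt2 was lost without any 1 lymphoma except 3594, 5560 or 7050, with an adjusted p up to 0.0817 (without 1570 or 2949), and with the mean of probe sets (-0.38, adjusted p = 0.131). The call for Rrm2 against Prps1 was lost without any 1 except 1467, 6054 or 7050, with an adjusted p up to 0.0863 (without 1570, 2581 or 2949). Rrm2 did not differ past the threshold from Shmt1 (-0.34, exact test adjusted p = 0.428) or Shmt2 (-0.55, exact test adjusted p = 0.0849), although the latter passed without lymphoma 7050 (adjusted p = 0.00781) and with the mean of probe sets (-0.69, adjusted p = 0.0167). Tk1 against Shmt1 (-0.69, exact test adjusted p = 0.0949) passed without 5560 or 7050 (adjusted p = 0.0466 and 0.0377) and with the mean of probe sets (-0.79, adjusted p = 0.0260). Tyms did not differ past the threshold from Shmt1, Shmt2 or Prps1, but with the mean of probe sets, 4 near-floor ones for Tyms, it fell less than each (differences of 0.79, 0.57 and 0.75, exact test adjusted p = 0.00977, 0.00799 and 0.00326).

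Fibroblast marker RNA varied widely between treated lymphomas, and Shmt1 was lower where it rose more. The mean of the 28 fibroblast markers was 4.34 to 5.08 in untreated arrays and 4.67 to 8.76 in ADR arrays, and 15 of the 28 were at or below the floor untreated against 4 after ADR. Its change ran from -0.05 in lymphoma 1467 to 4.10 in 403. The mean of the macrophage markers was higher in 12 of 12, by 0.40 to 2.38, and 4 of 12 neutrophil markers rose. Of 14 T and NK cell markers 1 rose and 1 fell. In lymphoma 1467 fibroblast markers did not rise, though the macrophage mean rose by 1.49. There Tk1 changed by -1.76, Dut by -1.15, Rrm1 by -0.96 and Rrm2 by -0.33, while Shmt1 changed by 0.45 and Shmt2 by -0.41. Without lymphomas 403 and 5560, the 2 with the largest fibroblast change, the same 8 genes were called lower.

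The fibroblast mean itself rose with ADR in 11 of 12 lymphomas, so a fit with it as a covariate separates it poorly from treatment and is less precise. The SE of Rrm1, for example, was 0.35 with it and 0.19 without. A call lost here or in the lists below can thus come with a smaller change, a larger SE or both. With the fibroblast mean of each array as a covariate, 4 of the 9 genes remained called lower, against 3.4% of all genes. These were Rrm1 (-1.84, limma adjusted p = 0.00908), Tk1 (-1.97, adjusted p = 0.00481), Dut (-1.31 against -1.96 without the covariate, adjusted p = 0.0162) and Tyms (-1.01, adjusted p = 0.0319). Rrm2 kept its size but not its call (-1.38, SE 0.39, limma adjusted p = 0.0545), and Prps1 stood at -0.65 (adjusted p = 0.0821). The one-carbon genes lost their calls, with Shmt2 at -0.36 (limma adjusted p = 0.518) and Shmt1 at -0.17 (limma adjusted p = 0.825). Rrm2b stood at 0.07 (limma adjusted p = 0.914). With the macrophage mean added, no gene of the 18193 was called by limma (2110 had an unadjusted p under 0.05, 4 of them among the 9), and Rrm1, Rrm2 and Tk1 stood at -1.87, -1.48 and -1.48. Dut stood at -1.07, Tyms at -0.77, Prps1 at -0.43, Shmt1 at -0.10, Shmt2 at 0.07 and Rrm2b at 0.19, and the adjusted p of the 9 lay between 0.220 and 0.969.

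Lymphoma by lymphoma, Rrm2 and Tk1 tracked Mki67 and Shmt1 tracked the fibroblast markers. Of 18 relations tested with permutation p-values adjusted over the 18, the change of Rrm2 correlated with that of Mki67 with Pearson's r = 0.835 (permutation p = 0.00128, adjusted p = 0.0205) and Spearman's rho = 0.769 (permutation p = 0.0053, adjusted p = 0.0443). With 3802 and 2949, the extremes of the Mki67 change, set aside, r was 0.616 (permutation p = 0.059), so this relation rests in part on them. For Tk1, r was 0.783 (permutation p = 0.00228, adjusted p = 0.0205) and rho 0.769 (permutation p = 0.00482, adjusted p = 0.0443), and r was 0.755 without those 2 (permutation p = 0.012). Rrm1 passed by rho (0.741, permutation adjusted p = 0.0443) and not by r (0.673, permutation adjusted p = 0.0643). The other 6 genes passed by neither measure. Among these, Tyms (r = 0.556), Dut (0.416), Prps1 (0.410) and Rrm2b (0.406) leaned the same way, and Shmt1 (-0.107) and Shmt2 (-0.213) did not. Without 3802 and 2949, r was 0.770 for Dut (permutation p = 0.00907, not adjusted).

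The change of Shmt1 correlated with the fibroblast change with r = -0.750 (permutation p = 0.00521, adjusted p = 0.0313) and rho = -0.713 (permutation p = 0.0115, adjusted p = 0.0518). Without lymphomas 1467 and 403 r was -0.674 (permutation p = 0.0319). Dut (r = -0.623, permutation adjusted p = 0.111) and Shmt2 (r = -0.584, permutation adjusted p = 0.144) leaned the same way without passing, as did Prps1 (r = -0.516, permutation adjusted p = 0.193) and Rrm2b (r = -0.495, permutation adjusted p = 0.204; -0.742 without 1467 and 403). Rrm1, Rrm2, Tk1 and Tyms had r of 0.138, -0.090, 0.144 and 0.418. The labels name the array files of treated samples in 2 ways, sen for 5 lymphomas and DOX for 7. Within the 7, r was 0.868 for Rrm2 (exact permutation p = 0.0101) and 0.823 for Tk1 (exact permutation p = 0.0242) with Mki67, and -0.793 for Shmt1 with fibroblast markers (exact permutation p = 0.0361). No correlation was computed over the 5.

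**Figure D4:**
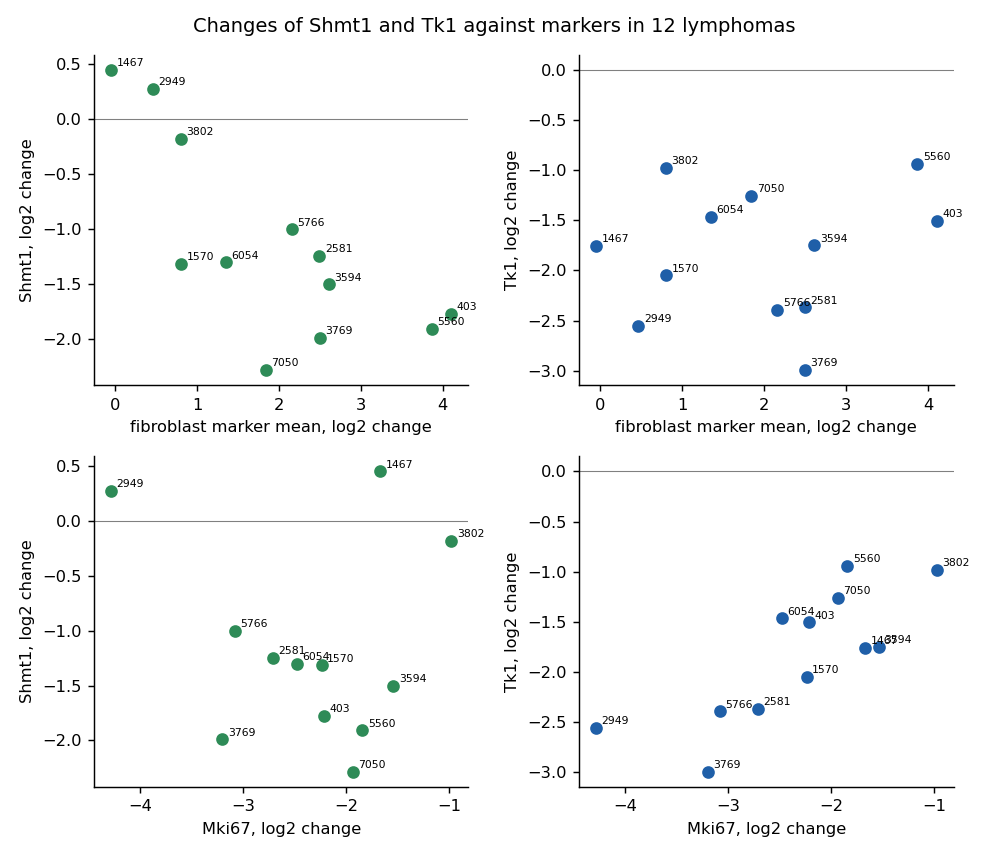
Log2 changes (ADR minus untreated) of Shmt1 and Tk1 on the vertical axes against the log2 change of the fibroblast marker mean or of Mki67 on the horizontal axes; each point is 1 of 12 lymphomas. Shmt1 is lower where fibroblast markers rose more (r = -0.750), and Tk1 is lower where Mki67 is lower (r = 0.783).

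No difference between the naming sets passed the test for the 9 genes. The difference between sets, fitted as an interaction, was largest for Shmt2 at 0.35 (SE 0.36), and the adjusted p of the 9 lay between 0.882 and 0.997. Across all genes limma called 0 by set, with 1237 at an unadjusted p under 0.05. The gap between Rrm2 and Rrm2b was -1.29 in the DOX set (7 of 7 lymphomas, exact p = 0.0156, the smallest that 7 allow) and -1.04 in the sen set (5 of 5, exact p = 0.0625, the smallest that 5 allow).

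The wider pathway held both rises and falls. Of 12 measured other genes of deoxynucleotide synthesis and salvage, 3 fell, 3 rose and 6 did not pass, with a median change of -0.05. Over all genes 12.8% were called lower and 13.7% higher, which is the background for this list and those that follow. Those that fell were Dctpp1, a dCTP-cleaning pyrophosphatase (2.14-fold, limma adjusted p = 0.000282), Dck, the deoxycytidine salvage kinase (2.07-fold, limma adjusted p = 2.84e-05, lower in 12 of 12), and Dtymk, which phosphorylates thymidylate (1.91-fold, limma adjusted p = 0.000852). Cda, cytidine deaminase, rose from 3.85 to 4.89, a change of 1.04 from near the floor (limma adjusted p = 0.0185). With the fibroblast covariate Cda turned to -0.53 (limma adjusted p = 0.155) and the list median to 0.060, and Dck was the 1 gene of this list still called lower (-0.77, limma adjusted p = 0.0270).

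The purine and pyrimidine lists held salvage genes (Hprt, Aprt, Uck1 and Uck2) beside those of new synthesis. In both lists falls outnumbered rises without the fibroblast covariate and were small. Of 14 measured purine genes 6 fell and 1 rose, with a median change of -0.40. The largest falls were in Ppat, the first committed enzyme (1.75-fold, limma adjusted p = 0.00969), Paics (1.51-fold, limma adjusted p = 0.000162) and Gmps, which makes GMP (1.5-fold, limma adjusted p = 9.48e-05). Aprt, the adenine salvage enzyme, rose 1.16-fold in 12 of 12 lymphomas (limma adjusted p = 0.0141). Of 7 pyrimidine genes 2 fell, Dhodh (1.73-fold, limma adjusted p = 0.00318) and Umps (1.52-fold, limma adjusted p = 0.00748), and Ctps2, a CTP synthase, rose 1.42-fold (limma adjusted p = 0.00151), with a median change of -0.24. With the fibroblast covariate the purine median turned to 0.095 and Ppat to 0.15 (limma adjusted p = 0.787), and the pyrimidine median was -0.089. Paics (-0.56, limma adjusted p = 0.0468) was then the 1 purine gene called lower, and 0 pyrimidine genes were.

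Of 18 measured other folate and one-carbon genes, 5 fell and 2 rose (median -0.26). Psat1 and Psph, which make the serine that the Shmt enzymes use, fell 2.05-fold (limma adjusted p = 2.71e-05, 12 of 12) and 1.72-fold (limma adjusted p = 0.0107). Mthfd1, the cytosolic folate enzyme, fell 1.49-fold (limma adjusted p = 0.0190), and Ggh, which trims folate chains, rose by 0.70 from the floor at 3.28 (limma adjusted p = 0.00439). With the fibroblast covariate the list median turned to 0.18 and Mthfd1 to 0.084 (limma adjusted p = 0.890), and Psat1 alone of this list was called lower (-1.13, limma adjusted p = 0.00642).

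Of 14 measured nucleotide breakdown genes 5 fell and 2 rose, with a median of -0.01. Ada, adenosine deaminase, fell 1.89-fold (limma adjusted p = 0.000712), Nt5c2 fell 1.41-fold (limma adjusted p = 0.0155) and Nudt1, which clears oxidised nucleotides, fell 1.37-fold (limma adjusted p = 0.0322). Xdh, which makes uric acid, rose 4.48-fold (limma adjusted p = 0.00106). With the fibroblast covariate its change was 0.23 (limma adjusted p = 0.786), the list median was 0.11, and Nudt1 turned to 0.11 and Nt5c2 to 0.0019 (limma adjusted p = 0.831 and 0.997).

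Without the fibroblast covariate, most of the E2F-linked list fell and most of the p53 target list rose. Of 17 measured E2F-linked regulators of S phase, 13 fell and 0 rose (median -0.98), led by Ccna2, cyclin A (4.19-fold, limma adjusted p = 1.65e-05), E2f8 (3.94-fold, limma adjusted p = 5.75e-05) and Cdc6, which licenses origins (3.32-fold, limma adjusted p = 5.12e-05). E2f1 itself was 7.08 untreated and 6.77 after ADR (limma adjusted p = 0.0887). Of 24 measured genes listed as p53 targets 15 rose and 1 fell (median 0.64). Ephx1 rose 3.35-fold (limma adjusted p = 0.00208), Phlda3 3.18-fold (limma adjusted p = 0.000921) and Plk2 2.59-fold (limma adjusted p = 0.0182). Ddb2, a DNA damage sensor, fell 2.11-fold (limma adjusted p = 0.00655). With the fibroblast covariate 6 of the E2F list were called lower, and of the p53 list 2 were called higher (Sesn2 and Tigar) and 1 lower (Ddb2). The median of the p53 list was then 0.53. Ephx1 (0.81), Phlda3 (0.96) and Plk2 (0.11) lost their calls (limma adjusted p = 0.482, 0.301 and 0.950). So did Cdkn1a (1.05), Mdm2 (0.58) and Ccng1 (0.56), with limma adjusted p = 0.168, 0.386 and 0.324.

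**Figure D5:**
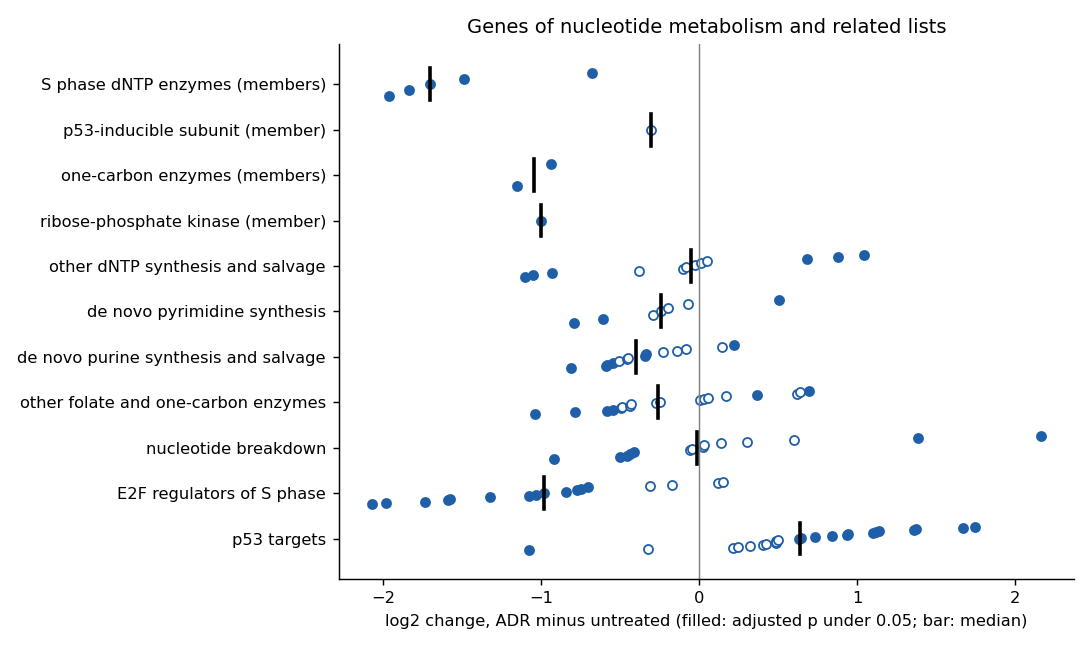
Log2 change, ADR minus untreated (horizontal axis), of every measured gene in each list (rows); each point is a gene, filled where the limma adjusted p is under 0.05, and the bar is the list's median. The E2F regulators centre at -0.98 and the p53 targets at 0.64, while other deoxynucleotide genes centre at -0.05.

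The genes most like Rrm2 in their 12 changes, among 11372 genes above the floor on average, were Clspn (r = 0.932), E2f8 (0.925), Pclaf (0.924), Rad51ap1 (0.911) and Cdca5 (0.903). Tk1 ranked 149 by this measure (r = 0.656) and Rrm1 551 (r = 0.473), so the partner subunit was not among the closest. Those most like Rrm2b were Slc17a9 (r = 0.897), Stx16 (0.895), Cep97 (0.890), Ttc37 (0.876) and Smchd1 (0.862). All these correlations are across 12 lymphomas whose arrays are shared by every gene, and are given as a description.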

How the data were processed

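The deposited values are log2 expression per probe set. The submitters' processing notes name RMA and Partek; versions, settings and build are not given in the sources used here. Symbols came from the platform annotation: 34945 of 45101 probe sets had 1 gene, and 932 with several (1 each shared by Tyms and Prps1) were left out. Changes were fitted with limma 3.58.1 (R 4.3.3; lmFit, eBayes) with the lymphoma as a block, and p-values were adjusted by Benjamini-Hochberg over 18193 genes or all single-gene probe sets. The series' design text states matched pairs, and deviations from group means correlated within every pair (0.257 to 0.589). For 10 of 12 lymphomas the untreated array correlated best with the ADR array of its own lymphoma. Simulated data had 200 changed genes of 18193 and noise independent between genes. On them the fit recovered 67.2% of genes changed by 0.5 log2 and 92.5% of those changed by 1, with 3.35% of calls false. The real data held 4829 called genes and changes shared between genes, so these rates need not carry over. Pairs of genes were compared by exact sign-flip tests over 4096 patterns, and relations by 100000 permutations (numpy 2.4.6, scipy 1.17.1). Other genes were named by rule: from each list the 3 called genes with the largest change in its main direction and the 1 largest the other way, plus 5 anchors and the 5 closest correlates of Rrm2 and Rrm2b; all B-cell markers are named as a check of identity, outside the rule. Members and lists were chosen with earlier results of these data known. A planned comparison of Rrm2 and Rrm2b proteins was not run. The number of lymphomas limits the precision.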

Additional observations from a re-analysis of the deposited data

How the results depend on the processing

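Leaving out 1 lymphoma at a time gave 3966 to 5165 genes called (4829 with all), 8 to 8 of the 9 members called lower, 10 to 14 of 20 pairs of genes differing (12 with all) and 4 to 5 S phase enzymes differing from Rrm2b. Without the replicate block, 3210 genes and 5192 probe sets were called, and 8 members. The sen set alone gave 811 genes, with Tyms (-0.54, adjusted p = 0.210) and Shmt1 (-1.16, adjusted p = 0.121) no longer called by limma; in the DOX set Shmt2 (-0.79, adjusted p = 0.0563) was not. In the DOX set 0 of 20 pairs and 0 of 5 contrasts with Rrm2b passed the exact sign-flip test after adjustment, with 9 and 4 at an unadjusted p under 0.05. With 7 lymphomas the smallest p this test can give is 0.0156. Rrm2 against Rrm2b (-1.29) reached it and stood at 0.0521 after adjustment, so the few lymphomas limit this count. The pair calls lost in this set are among the 33 given below. The fibroblast covariate gave 1052 genes and 4 members by limma, and both marker covariates gave 0 and 0 (2110 and 4 at an unadjusted p under 0.05); Rrm2b turned to 0.069 and 0.19, and Shmt2 to 0.074 with both. Taking the mean of a gene's probe sets turned the Tyms against Rrm2b difference to 0.051. Of the members' values under alternatives, 208 kept direction and call, 14 lost the call and 3 changed sign; of the pairs' values, 257 kept both, 33 lost and 9 gained the call and 1 changed sign. The cause of these shifts was not tested. Changes of genes near the floor, such as Tyms, are compressed and have no reliable size.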

Other observations

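Rrm2b varied less between lymphomas after treatment than before it. The SD over 12 lymphomas was 0.52 untreated and 0.15 after ADR, a ratio of 0.295, where the median ratio of the 11372 genes above the floor was 1.09 and 0.114% of them had a ratio as low or lower. Leaving out any 1 lymphoma gave ratios between 0.230 and 0.364. The other Rrm2b probe set above the floor had a weaker narrowing, from 0.73 to 0.45 (ratio 0.623), so the size depends on the probe set. The 24 measured genes listed as p53 targets were mixed: 14 had a lower SD after ADR and 10 a higher one, with a median ratio of 0.849. Ratios ran from 0.392 to 5.08, the highest in Eda2r, which was near the floor untreated at 3.85. Cdkn1a (0.437), Ccng1 (0.444) and Mdm2 (0.517) narrowed too, with 1.02%, 1.13% and 2.81% of the 11372 genes as low or lower. Dut (2.65), Prps1 (2.21), Rrm1 (1.91) and Rrm2 (1.77) varied more after ADR. This pattern was noticed after the values were seen and was not tested.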
